A study of Canis lupus familiaris with 12 samples.

Results

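Antigen presentation genes were followed in heart tissue from control dogs and from dogs diagnosed with DMVD, degenerative mitral valve disease, in which the valve leaflets thicken and leak. The rule named 7 genes, CD74, DLA-DRA, B2M, TAP1, TAP2, CTSS and CIITA, and took the rows carrying the symbol or the UniProt entry name. It found 6 of them among the 24223 genes of each tissue's table, and all 6 were tested in both tissues. No row carried the name of TAP2, so TAP2 was not analysed here. The series comprises 12 RNA sequencing libraries from 8 dogs. The left ventricle DMVD group was 2 libraries, a Jack Russell Terrier aged 5 years and a Pomeranian aged 9 years, and its control group was 4 libraries, a Beagle aged 8 years and Hound mixes aged 3 years. The mitral valve DMVD group was 3 libraries, from the same Pomeranian and from Beagles aged 16 and 17 years, and its control group was 3 libraries, from the same Beagle control and Hound mixes of 3 years. That the title numbers mark dogs is a reading of the labels, under which 3 control dogs and 1 DMVD dog gave both tissues. Breed and age differed between the diagnosis groups of each tissue and cannot be told apart from diagnosis.

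Cells show fragments of proteins to T cells on 2 kinds of surface molecule. Class I molecules, a heavy chain paired with beta-2 microglobulin (B2M), are made by nearly all nucleated cells and are loaded in the endoplasmic reticulum with peptides that the TAP1 and TAP2 transporter pumps in from the cytosol. Class II molecules, an alpha and a beta chain such as DLA-DRA and its DRB partner, are made mainly by macrophages, dendritic cells and B cells. Their groove is held by the invariant chain CD74 until the lysosomal protease cathepsin S (CTSS) trims it away, and their genes are switched on by the coactivator CIITA, which interferon gamma can induce. DLA is the dog leukocyte antigen complex, the dog's counterpart of the human HLA genes, and several dog rows of the tables carry the human HLA symbol.

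In the diseased valve all 6 genes had the higher value, by 1.64-fold for TAP1 to 4.25-fold for CD74, and none of them passed an adjusted p of 0.05. The class II genes CD74 and DLA-DRA and the protease CTSS stood highest in fold, and the class I gene B2M and the transporter TAP1 lowest. In the ventricle CD74, CTSS, DLA-DRA and B2M were 1.19 to 1.80 times as high in DMVD, TAP1 and CIITA were lower, and again none passed. The tables hold 1 value per group, with no unit in their headers, and the values are taken from the tables' layout to be FPKM (fragments scaled to gene length and to library size), so no value per dog and no spread between dogs can be shown. A log2 fold change is DMVD over control throughout, and each value is given ± SE, the model's standard error worked out from the test statistic that the authors deposited. Adjusted p-values are the authors' deposited p after Benjamini-Hochberg over every gene tested in that tissue. By this rule 3.08% of 13788 tested genes were called in the ventricle and 0.419% of 14810 in the valve, against 0 of 6 here in both. In bulk tissue more cells of a type and more RNA per cell cannot be told apart.

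**Figure D1:**
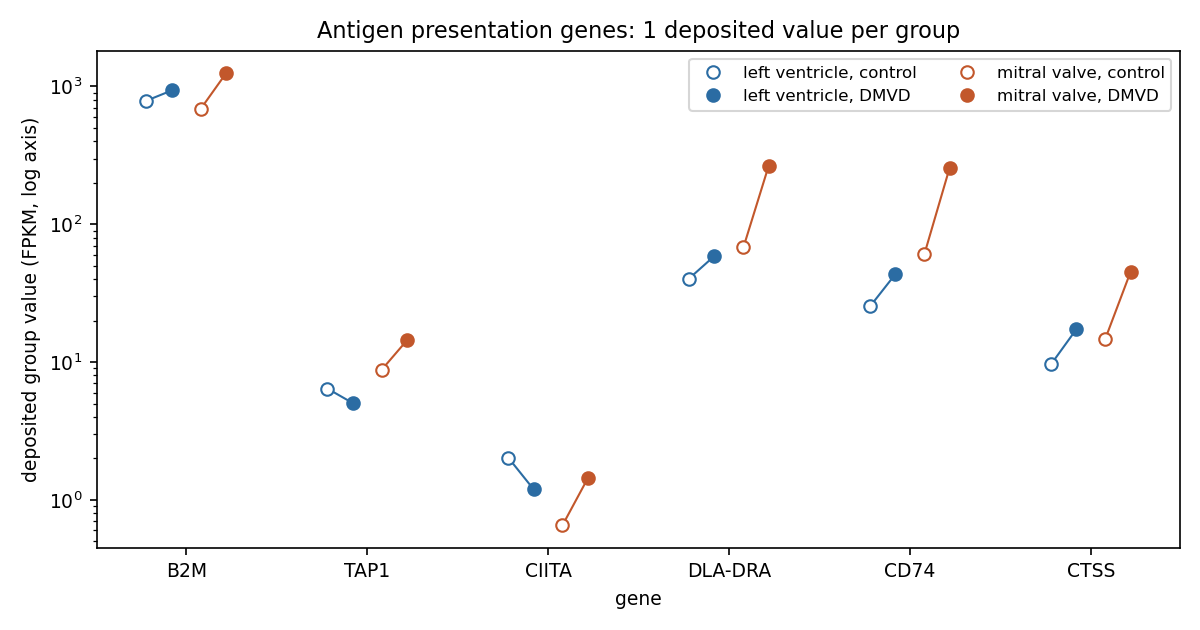
Deposited group values of the 6 genes (FPKM, log axis), open circles for control and filled for DMVD, blue for left ventricle and orange for mitral valve, with a line joining the 2 groups of a tissue. All 6 valve lines go up from control to DMVD, while in the ventricle those of TAP1 and CIITA go down.

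B2M (ENSCAFG00000013633, chromosome 30, 11331777 to 11337987, CanFam3.1), the light chain shared by class I molecules, was the most abundant member by far. It was listed at 788 FPKM in control ventricle and 935 in DMVD ventricle. In the valve it stood at 687 FPKM in control and 1245 in DMVD. Only 1.02% of the genes tested in the valve lay above it in the control group. Its log2 fold change was 0.25 ± 0.55 in the ventricle and 0.86 ± 0.82 in the valve, with 95% intervals from -0.82 to 1.32 and from -0.75 to 2.47, both of which include 0.

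TAP1 (ENSCAFG00000000832, chromosome 12, 2424464 to 2432068), the transporter subunit, was a gene of modest level. Its values were 6.42 FPKM in control and 5.04 in DMVD ventricle, and 8.78 in control and 14.4 in DMVD valve. The direction thus differed between the tissues. The log2 fold changes were -0.35 ± 0.45 in the ventricle and 0.71 ± 0.47 in the valve, and both intervals include 0.

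CIITA (ENSCAFG00000018931, chromosome 6, 31775807 to 31813546), the coactivator of class II genes, was the least abundant member in all 4 groups. It was listed at 2.03 FPKM in control and 1.19 in DMVD ventricle, and at 0.654 in control and 1.44 in DMVD valve. In the ventricle its value was lower in DMVD while those of CD74 and DLA-DRA were higher. Its log2 fold changes, -0.76 ± 0.62 in the ventricle and 1.13 ± 0.96 in the valve, had the widest errors of the 6.

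DLA-DRA (ENSCAFG00000000803, chromosome 12, 2132985 to 2136689), the class II alpha chain, stood at 40.4 FPKM in control ventricle and 58.9 in DMVD ventricle. In the valve it was 67.9 FPKM in control and 266 in DMVD. The valve difference was 3.92-fold, a log2 fold change of 1.97 ± 0.67 (95% interval 0.66 to 3.29, adjusted p = 0.294 from the authors' test). The ventricle difference was 1.46-fold, 0.54 ± 0.43 on the log2 scale, and its interval includes 0.

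CD74 (ENSCAFG00000018101, chromosome 4, 58689931 to 58697625), the invariant chain, was listed at 25.3 FPKM in control and 43.4 in DMVD ventricle. It was listed at 60.4 in control and 257 in DMVD valve. It had the largest valve difference of the 6, a log2 fold change of 2.09 ± 0.63 with a 95% interval from 0.85 to 3.32. The authors' deposited table gives an unadjusted p of 0.000923 for it, which became 0.129 after adjustment. Its ventricle difference was 0.78 ± 0.43 (adjusted p = 0.513 from the authors' test).

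CTSS (ENSCAFG00000012086, chromosome 17, 59893334 to 59910743), cathepsin S, was at 9.61 FPKM in control and 17.3 in DMVD ventricle, and at 14.7 in control and 45.1 in DMVD valve. It had the largest ventricle difference of the 6, 0.85 ± 0.46 (adjusted p = 0.501 from the authors' test). Its valve difference was 1.62 ± 0.54, or 3.07-fold (adjusted p = 0.243 from the authors' test).

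The order of the levels was the same in all 4 groups, with B2M highest, then DLA-DRA, CD74, CTSS, TAP1 and CIITA. Without values per dog it cannot be said which neighbours in that order differ beyond the spread between dogs. DLA-DRA and CD74 were neighbours in that order, with a CD74 to DLA-DRA ratio of 0.63 in control and 0.74 in DMVD ventricle, and 0.89 in control and 0.96 in DMVD valve.

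**Figure D2:**
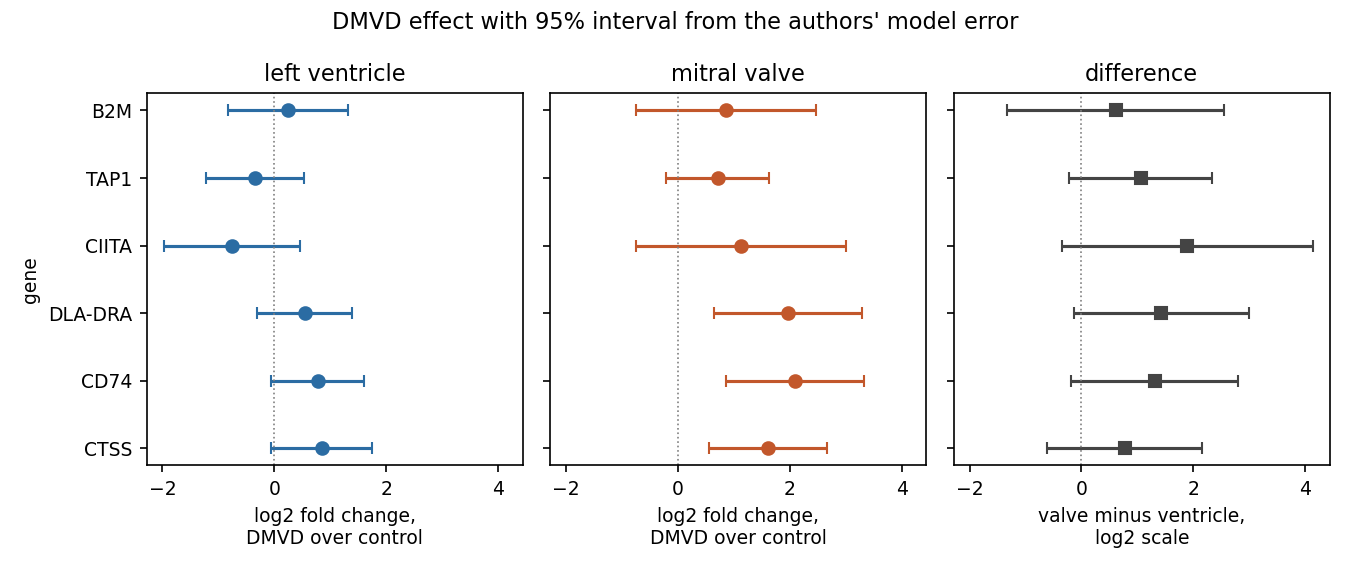
Log2 fold change of each gene, DMVD over control, in the left ventricle and the mitral valve, and the valve effect minus the ventricle effect, each with a 95% interval from the authors' model error. In the valve the intervals of DLA-DRA, CD74 and CTSS lie above 0, and all intervals of the other panels include 0.

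At an unadjusted p under 0.05 in the authors' deposited table, 3 of the 6 genes were higher in the DMVD valve, CD74, DLA-DRA and CTSS, against 2.73% of all genes tested there, or 4.2% counting both directions. The 6 were chosen with earlier results of these data known, so the shares in this paragraph are set beside them without a test. In the ventricle 0 of 6 had such a p, where 5.74% of all tested genes were higher at that level and 11.3% differed in either direction. A higher value in DMVD, with no test, was held by 6 of 6 genes in the valve beside 54.9% of all tested genes. In the ventricle it was held by 4 of 6 beside 46.8%. The median log2 fold change of the 6 was 1.38 in the valve, where the median of all tested genes was 0.05. In the ventricle it was 0.40, beside -0.04 for all tested genes.

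The size a difference needed in order to be called was large. The largest unadjusted p called was 0.00154 in the ventricle and 0.000200 in the valve, in the authors' deposited tables. At its own SE, CD74 needed a 5.08-fold difference in the valve and had 4.25. CTSS needed 3.99-fold and had 3.07, and DLA-DRA needed 5.65-fold and had 3.92. B2M needed 8.29-fold and CIITA 11.9-fold, so a change of 2.19-fold such as that of CIITA was not detectable at this precision.

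The valve effect exceeded the ventricle effect for all 6 genes, but no difference between the tissues passed an adjusted p of 0.05. Valve minus ventricle was 1.90 ± 1.14 for CIITA, 1.43 ± 0.80 for DLA-DRA and 1.31 ± 0.76 for CD74 on the log2 scale. It was 1.06 ± 0.65 for TAP1, 0.77 ± 0.71 for CTSS and 0.61 ± 0.99 for B2M. By a two-sided normal test adjusted over the 13099 genes tested in both tissues 0 of the 6 were called, beside 0.107% of those genes. At an unadjusted p under 0.05 it was also 0 of 6, beside 1.69% with a larger valve effect. A positive difference was found for 53.3% of them. The interval of the CD74 difference ran from -0.18 to 2.80 and includes 0. This test takes the errors of the tissues as independent, although some dogs gave both. With an assumed correlation of 0.5 between them, a value that the tables cannot estimate, the adjusted count stayed at 0 of 6, beside 1.15% of all genes. The unadjusted count became 4 of 6, CD74, DLA-DRA, TAP1 and CIITA, beside 4.84% of all genes with a larger valve effect. The CD74 interval then ran from 0.22 to 2.40 and no longer included 0, so whether the tissues differ in these 4 genes at the unadjusted level depends on that correlation.

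In control dogs the valve values of CD74 and DLA-DRA were 2.38 and 1.68 times the ventricle values, those of CTSS and TAP1 1.53 and 1.37 times, and those of B2M and CIITA 0.87 and 0.32 times. The median log2 ratio of all genes above 1 FPKM in both control groups was 0.31, and the tables were normalised separately, so these levels are set side by side without a test.

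The other genes of the pathway came from 11 lists by role, of which 10 had rows in the tables, 59 rows in all. In the ventricle 2 of 50 tested genes passed, both higher in DMVD, a share near the 3.08% of all tested genes. Both belong to the costimulation list, and 4 of the 50 were higher at an unadjusted p under 0.05, beside 5.74% of all. In the valve 0 of 54 tested genes passed, beside 0.419% of all. There 45 of the 54 had the higher value in DMVD, beside 54.9% of all, and 7 were higher at an unadjusted p under 0.05, beside 2.73% of all. The median of these pathway genes was 0.02 in the ventricle and 0.45 in the valve. The direction was evenly split in the ventricle, with 25 genes higher and 25 lower. The lists were chosen with earlier results of these data known, so the shares beside them are no test. Each list count below stands beside the same shares of all tested genes. Those are 3.08% called and 46.8% higher in the ventricle, and 0.419% and 54.9% in the valve. In a short list a count of 0 called is near these shares.

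**Figure D3:**
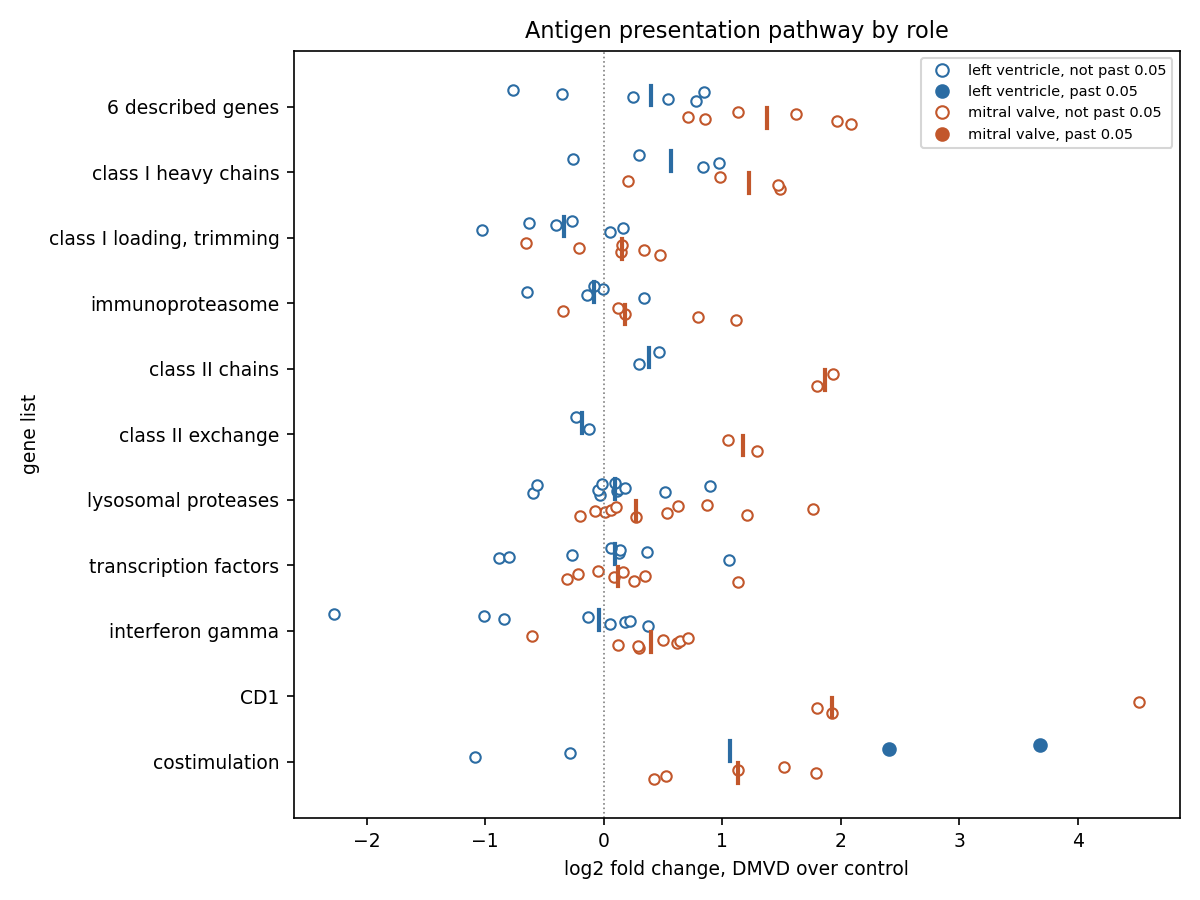
Log2 fold change, DMVD over control, of each tested gene by role, blue for left ventricle and orange for mitral valve, with a vertical bar at each list's median and filled circles where the adjusted p is under 0.05. The 2 filled circles are ICOSLG and CD274 in the ventricle, and the valve medians of the class I heavy chains, the class II lists, CD1 and costimulation lie above 1.

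The class I heavy chains, the peptide-holding chains that pair with B2M, all had higher values in the diseased valve, and 0 of 4 passed in either tissue. DLA-12 was listed at 129 FPKM in control and 361 in DMVD valve (1.48 ± 0.70). DLA-64 stood at 114 and 317 (1.47 ± 0.63), and DLA-88 at 167 and 328 (0.98 ± 0.78). DLA-79, a class I gene on another chromosome, had 12.8 and 14.8 FPKM (0.20 ± 0.69). In the ventricle the 4 values ran from -0.26 to 0.97, the highest for DLA-64 (0.97 ± 0.44). DLA-88, DLA-12 and DLA-64 are close relatives in sequence, so how their reads were shared out is uncertain.

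Among genes that load and trim class I peptides 0 of 6 tested passed in either tissue, with a median of -0.33 in the ventricle and 0.15 in the valve. The chaperones CALR and CANX had valve values of 0.34 ± 0.54 and -0.21 ± 0.55, and the loading factor tapasin (TAPBP) 0.48 ± 0.49. The peptide-trimming enzyme ERAP1 had -0.63 ± 0.47 in the ventricle and 0.16 ± 0.50 in the valve. Of 5 genes of the immunoproteasome, the proteasome form that cuts peptides for class I, and its activator none passed either. PSMB8 had the highest valve value of them, 1.12 ± 0.62 (5.09 FPKM in control and 11.0 in DMVD). The activator subunits PSME1 and PSME2 had -0.34 ± 0.45 and 0.12 ± 0.46, and the catalytic subunit PSMB10 0.18 ± 0.64.

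The class II partners of DLA-DRA stood close to it in fold, and neither passed. HLA-DRB1, the beta chain, was listed at 44.6 FPKM in control and 54.7 in DMVD ventricle, and at 74.4 in control and 260 in DMVD valve (1.80 ± 0.78). HLA-DQB1, the beta chain of the DQ molecule, stood at 14.7 FPKM in control and 56.0 in DMVD valve (1.93 ± 0.61, adjusted p = 0.195 from the authors' test). In the ventricle it had 6.01 and 8.28 FPKM (0.46 ± 0.49). The ratio of HLA-DRB1 to DLA-DRA lay between 0.93 and 1.11 in the 4 groups. The ratio of HLA-DQB1 to DLA-DRA was 0.15 and 0.14 in control and DMVD ventricle, and 0.22 and 0.21 in control and DMVD valve.

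Of the class II peptide exchange genes 0 of 2 tested passed. HLA-DMA, a subunit of the factor that exchanges CD74 remnants for peptide, had 13.4 FPKM in control and 32.7 in DMVD valve (1.29 ± 0.68). HLA-DOB, a subunit of its inhibitor, had 0.553 and 1.15 (1.05 ± 0.96). Their ventricle values were -0.12 ± 0.67 and -0.24 ± 0.84. HLA-DOA and HLA-DPB1 were not tested by the authors, and HLA-DPB1 was listed at 0 in 3 groups and at 0.0259 FPKM in the DMVD valve.

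DLA-DRA and TAP1 lie in the same stretch of chromosome 12, and its rows were read in order from DLA-DRA to HLA-DPB1 (2132985 to 2607784). Of 14 rows tested in the valve all 14 had the higher value in DMVD, beside 54.9% of all tested genes, and 1 passed, beside 0.419%. Most of these rows are not new, as they are DLA-DRA, TAP1 and class II and immunoproteasome genes already counted above. The small RNA rows 7SK (0.284 and 1.58 FPKM, SE 2.74) and SCARNA20 (0 and 1.95 FPKM) are too near 0 to be read. In the ventricle 6 of 13 tested rows were higher, beside 46.8% of all, and 0 passed, beside 3.08%. The row that passed was Q30429_CANFA (ENSCAFG00000000812, 2221180 to 2227600), which lies between HLA-DRB1 and HLA-DQB1 and carries a UniProt name with no symbol. It was picked out after its values were seen. It was listed at 7.80 FPKM in control and 37.3 in DMVD valve and rose by 2.26 ± 0.59 on the log2 scale (adjusted p = 0.0372 from the authors' test, and 0.378 with the stricter Benjamini-Yekutieli adjustment). In the ventricle it had 5.69 and 7.35 FPKM (0.37 ± 0.58), and the difference between the tissues, 1.89 ± 0.83, did not pass. BRD2_CANFA, a row of the same stretch, had a valve value of 0.09 ± 0.50.

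**Figure D4:**
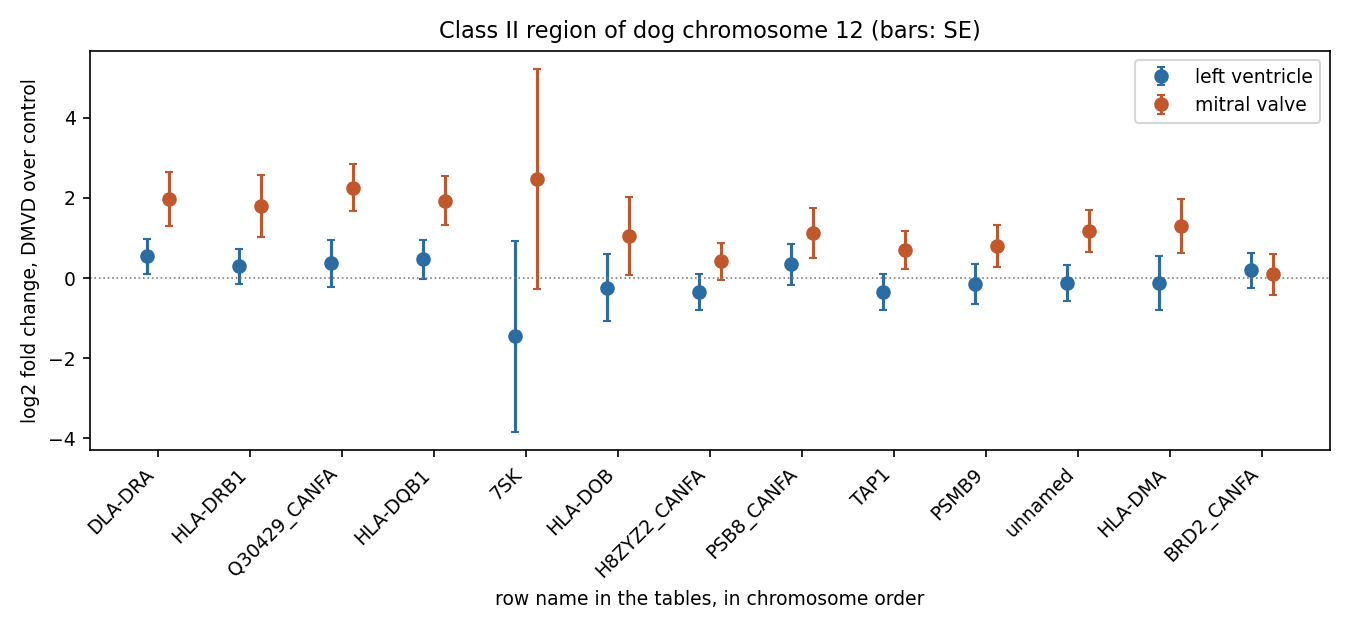
Log2 fold change, DMVD over control, with SE bars for 13 tested rows from DLA-DRA to HLA-DMA and BRD2_CANFA in chromosome order, blue for left ventricle and orange for mitral valve. All orange points lie above 0, the first 4 protein rows near 2, and the blue points lie on both sides of 0.

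Of the lysosomal enzymes other than CTSS 0 of 11 tested rows passed, with a median of 0.10 in the ventricle and 0.28 in the valve. The abundant cathepsins had valve values of 0.28 ± 0.58 for CTSB, 0.53 ± 0.53 for CTSK, -0.20 ± 0.50 for CTSD and 0.06 ± 0.44 for CTSZ. CTSC and CTSH, chosen after their values were seen because their unadjusted p was under 0.05, had 1.77 ± 0.66 and 1.21 ± 0.47 in the valve. CTSC activates granule proteases of leukocytes and CTSH is an aminopeptidase.

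The transcription factors listed beside CIITA were NLRC5, the coactivator of class I genes, the RFX complex, the trimeric factor NFY and CREB1, which together assemble on class I and class II promoters. 0 of 8 passed, with medians of 0.10 in the ventricle and 0.12 in the valve. In the valve NFYC had 0.16 ± 0.44, NFYB -0.22 ± 0.47, CREB1 -0.04 ± 1.16 and RFXAP -0.31 ± 0.53. NLRC5, picked after its values were seen, had 1.06 ± 0.51 in the ventricle and 1.13 ± 0.72 in the valve. NLRC5, NFYC, CREB1, CANX and PSME1 share their listed locus with another gene, so their values are uncertain.

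Genes of interferon gamma signalling, which induces CIITA and TAP1 in many cells, did not pass in either tissue, 0 of 8 tested. The interferon gamma gene IFNG itself was not tested and its values lay between 0.0131 and 0.106 FPKM. The receptor IFNGR1 had 0.37 ± 0.45 in the ventricle and 0.29 ± 0.52 in the valve, and the kinase JAK1 0.05 ± 0.46 and 0.29 ± 0.47. The transcription factor IRF2 had -0.13 ± 0.48 and 0.50 ± 0.53. In the valve 7 of the 8 had the higher value in DMVD, beside 54.9% of all tested genes, and in the ventricle 4, beside 46.8%.

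The CD1 genes, which present lipids, were at low levels, with none of 4 tested in the ventricle and 3 tested in the valve. CD1D had 0.639 FPKM in control and 2.42 in DMVD valve (1.92 ± 1.41), and CD1E 0.359 and 1.25. CD1A6 had 0.0320 and 0.733 FPKM, too near 0 for its fold to be read. CD1B was at 0.0390 and 0.201 FPKM and was not tested.

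Of the costimulation genes, which give T cells a second signal, 2 of 4 tested rose in the ventricle and 0 of 5 passed in the valve. The shares called over all tested genes were 3.08% in the ventricle and 0.419% in the valve. CD274, the inhibitory ligand PD-L1, was listed at 0.915 FPKM in control and 11.7 in DMVD ventricle and rose by 3.68 ± 0.70 (adjusted p = 2.50e-05 from the authors' test). ICOSLG, the ligand of the T cell receptor ICOS, was listed at 0.875 and 4.64 FPKM and rose by 2.41 ± 0.54 (adjusted p = 0.000785 from the authors' test). Adding 1 FPKM to each value gave log2 fold changes of 2.73 and 1.59. CD274 shares its listed locus with another gene. In the valve CD274 had 1.13 ± 0.60 and ICOSLG 1.79 ± 0.58. The CD274 difference, valve minus ventricle, was -2.55 ± 0.92, with an adjusted p of 0.769 by the normal test with independent errors and 0.0136 with the assumed correlation of 0.5. CD40, a receptor of antigen-presenting cells, had -1.09 ± 0.56 in the ventricle and 0.43 ± 0.65 in the valve, and CD83, a marker of mature dendritic cells, -0.28 ± 0.56 and 0.53 ± 0.57.

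Leukocyte markers were higher beside the class II genes. All 4 pan-leukocyte markers had higher DMVD values in both tissues, with a summed level of 18.2 FPKM in control and 56.5 in DMVD valve, and 7.31 and 15.8 in the ventricle, and none passed. PTPRC, the leukocyte surface phosphatase CD45, had 2.01 ± 0.74 in the valve and 0.84 ± 0.68 in the ventricle, and the actin bundler LCP1 had 0.91 ± 0.52 in the ventricle and 10.8 FPKM against 2.71 in the valve. LAPTM5, a lysosomal protein of leukocytes, had 1.56 ± 0.52 in the valve and 1.13 ± 0.47 in the ventricle, and CORO1A, an actin regulator of leukocytes, 1.30 ± 0.61 and 1.44 ± 0.56. The ratio of CD74 to PTPRC was 54.5 in control and 57.7 in DMVD valve, and 28.3 in control and 27.0 in DMVD ventricle. The ratio of DLA-DRA to PTPRC was 61.2 and 59.8 in the valve and 45.2 and 36.7 in the ventricle. TAP1 to PTPRC was 7.92 in control and 3.23 in DMVD valve, and 7.18 and 3.14 in the ventricle. B2M to PTPRC was 620 and 280 in the valve. CTSS to PTPRC was 13.3 in control and 10.1 in DMVD valve, and CIITA to PTPRC 0.590 and 0.322. In the valve the CD74 and DLA-DRA ratios to PTPRC thus lay close together in control and DMVD, and those of CTSS, CIITA, TAP1 and B2M were lower in DMVD, so class II and class I genes were not cleanly apart. That closeness depends on the marker set below the line. CD74 had a valve log2 fold change of 2.09, beside 2.01 for PTPRC but 1.56 for LAPTM5 and 1.30 for CORO1A. Against LAPTM5 or CORO1A its ratio was therefore higher in DMVD. Against LCP1 the CD74 ratio was 22.3 in control and 23.7 in DMVD valve. PTPRC itself was low, at 1.11 FPKM in control and 4.45 in DMVD valve, and 0.894 and 1.61 in the ventricle. With 1 FPKM added to each value its valve log2 fold change was 1.37, beside 2.07 for CD74 and 1.96 for DLA-DRA. All ratios to PTPRC thus rest on a small value. In the ventricle CTSS to PTPRC was 10.7 in control and 10.8 in DMVD, CIITA to PTPRC 2.27 and 0.744, and B2M to PTPRC 882 and 583. Set against CD163, a macrophage receptor, CD74 had a ratio of 6.05 in control and 3.81 in DMVD ventricle, and of 11.6 and 12.4 in the valve. These are ratios of single group values with no error, and the part of leukocyte number in the results was not tested.

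**Figure D5:**
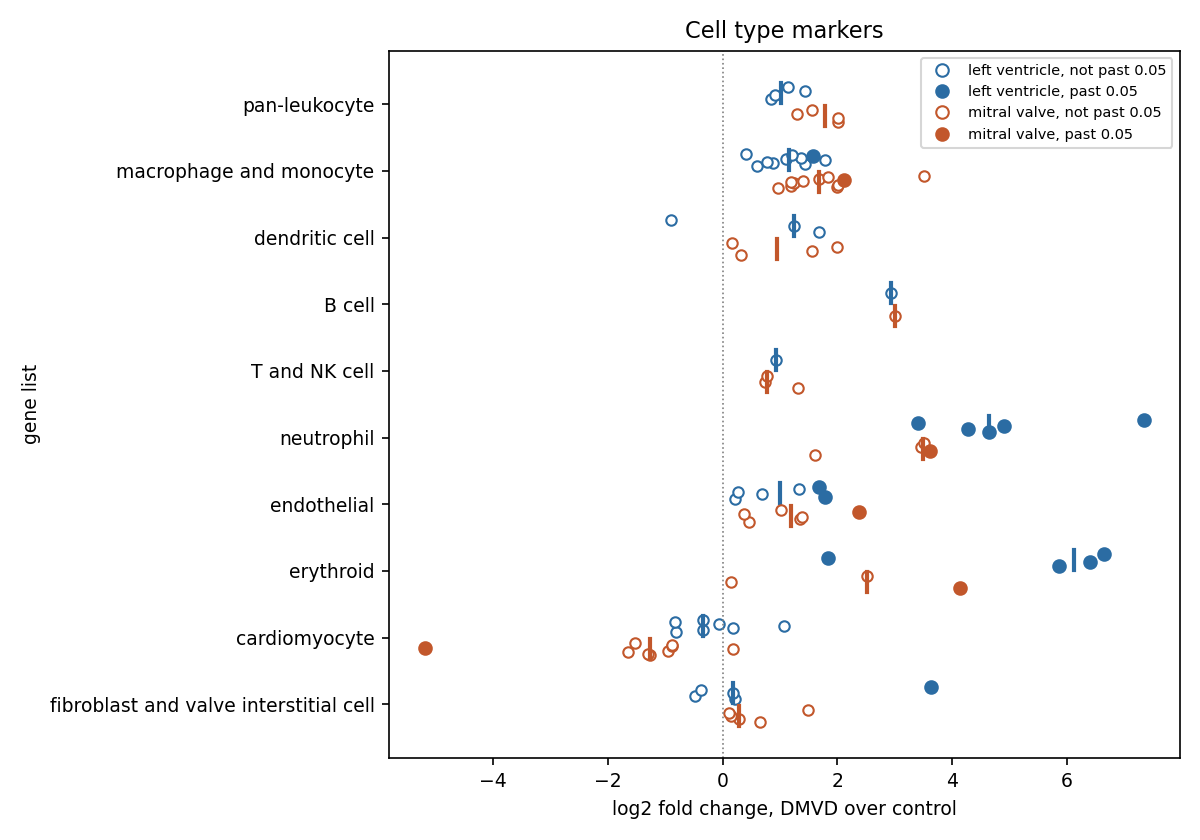
Log2 fold change, DMVD over control, of each tested marker by cell type, blue for left ventricle and orange for mitral valve, with a vertical bar at each list's median and filled circles where the adjusted p is under 0.05. Pan-leukocyte and macrophage markers lie above 0 in both tissues, and most cardiomyocyte markers lie below 0 in the valve.

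Of 11 macrophage and monocyte markers all 11 had higher values in the DMVD valve, and the complement subunit C1QB rose, by 2.12 ± 0.55 (adjusted p = 0.0322 from the authors' test). Their summed level was 147 FPKM in control and 403 in DMVD valve, and 54.1 and 132 in the ventricle, where C1QB rose by 1.57 ± 0.45 (adjusted p = 0.0198 from the authors' test). Neither C1QB call held when the authors' p was adjusted by Benjamini-Yekutieli (adjusted p = 0.328 and 0.200). Other abundant members were C1QA (1.40 ± 0.54 in the valve), C1QC (1.68 ± 0.54), TYROBP (1.25 ± 0.60) and FCER1G, whose SE of 9.67 at a shared locus leaves its 1.19 unreadable. The summed levels include FCER1G, at 56.8 FPKM in control and 129 in DMVD valve, and 13.9 and 29.7 in the ventricle.

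Markers of other antigen-presenting cells and of T cells were scarce. The 7 dendritic cell markers summed to 4.07 FPKM in control and 8.10 in DMVD valve, with XCR1 listed at 0 in both, and to 3.19 and 4.14 in the ventricle, where XCR1 was at 0 in DMVD. The most abundant of them, ITGAX, BATF3, ZBTB46 and CLEC9A, reached at most 3.05 FPKM. The 6 B cell markers summed to 1.37 FPKM in control and 3.53 in DMVD valve, with CD79B at 0 in control, and to 0.872 and 2.08 in the ventricle, with MS4A1 at 0 in DMVD, and none of them exceeded 1.99 FPKM. The 11 T and NK cell markers summed to 2.21 and 5.62 FPKM in the valve, with NKG7 at 0 in both groups and GZMB at 0 in control, and to 3.81 and 3.42 in the ventricle, with NKG7 at 0 in DMVD, and none of them exceeded 2.56 FPKM. None of these lists had a gene past the threshold in either tissue. The part of these cells in the results was not tested.

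Neutrophil, blood, endothelial and muscle markers also differed. All 5 tested neutrophil markers rose in the DMVD ventricle, where 3.08% of all tested genes were called. Their summed level there was 14.2 FPKM in control and 378 in DMVD. In the valve all 4 tested were higher, with sums of 8.57 and 43.3. Only S100A9 passed there (3.62 ± 0.97, adjusted p = 0.0466 from the authors' test, and 0.0558 centred on the median gene). CSF3R had 3.52 ± 1.06, S100A12 3.46 ± 2.45 and S100A8 1.61 ± 0.96 in the valve. S100A9 was at 0.273 FPKM and CSF3R at 0.0819 in control valve, so the size of their valve folds is uncertain. With 1 FPKM added to each value their valve log2 fold changes were 1.77 and 0.84. Those of S100A12 and S100A8 were then 2.87 and 1.48. In the ventricle S100A8 had 4.65 ± 0.67, S100A12 4.90 ± 0.99, S100A9 4.27 ± 0.58, CSF3R 3.40 ± 0.63 and MMP8 7.34 ± 2.06. MMP8 was at 0.00912 FPKM in control ventricle, too near 0 for its fold to be read, and CSF3R at 0.197. Adding 1 FPKM to each value gave log2 fold changes of 1.30 for MMP8 and 1.36 for CSF3R. The 4 erythroid genes, HBA, HBM, AHSP and ALAS2, all rose in the ventricle and HBA rose in the valve (4.13 ± 0.65), with sums of 62.6 and 3604 FPKM in the ventricle and 35.8 and 608 in the valve. Of 6 endothelial markers, a cell type that can carry class II, EMCN rose in the valve (2.37 ± 0.53) and VWF (1.79 ± 0.49) and ROBO4 (1.68 ± 0.43) rose in the ventricle, with sums of 43.7 and 104 FPKM in the valve and 65.0 and 152 in the ventricle. Cardiomyocyte markers were abundant in the valve samples, and 8 of 9 had lower values in DMVD, with sums of 18495 FPKM in control and 9034 in DMVD. MYL3, a ventricular myosin light chain, passed the test there and fell by 5.19 ± 0.68. The other cardiomyocyte markers did not pass in the valve, and ran from -1.65 ± 1.12 for TNNI3 to 0.18 ± 2.13 for ACTC1. Of 7 tested in the ventricle 5 were lower and 0 passed. MYH7 and CKM were listed at 0 in control ventricle, and at 1637 and 6855 FPKM in DMVD, with the status HIDATA in place of tested. Those 0 values are not read as absence of the genes from control ventricle. Of 5 tested fibroblast and valve interstitial cell markers POSTN rose in the ventricle (3.64 ± 0.99) and 0 passed in the valve, where sums were 2224 and 2945 FPKM, beside 366 and 389 in the ventricle. The part of these differences in tissue makeup in the antigen presentation values was not tested.

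The genes most like 3 of the members in their pair of ventricle and valve log2 fold changes were found by straight-line distance among 4879 named genes whose mean reached 5 FPKM in each tissue. Near CD74 lay SPTSSA (distance 0.03) and ACTG2 (0.12). ACTG2 passed in the valve (2.03, adjusted p = 0.0213 from the authors' test), and SPTSSA did not. Nearest to B2M were ZNF219 (0.01), COL4A2 (0.05) and CD9 (0.05), and nearest to TAP1 were LRP10 (0.05), SPARC (0.05) and KLF10 (0.07). All these distances are smaller than the SE of any member's effect.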

How the data were processed

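RNA from left ventricle and mitral valve was made into TruSeq libraries, per the labels' protocols. The submitters' processing notes list cutadapt, Bowtie, TopHat and CanFam3.1, without versions. The sources used here do not name the program that made the gene values. For each tissue the authors deposited 1 table with 1 value per group, whose columns name no unit. FPKM is inferred from the layout of the deposited columns. The tables also hold a test statistic and an unadjusted p-value. The library depth is unknown.

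Log2 fold changes, DMVD over control, were recomputed from the group values. A two-sided p from the normal distribution of the statistic differs from the deposited p-value by at most 2.84e-06, so the SE was taken as the log2 fold change over the statistic. It is a model error and no spread between dogs was available. Benjamini-Hochberg ran over the authors' tested genes, at 0.05. The steps were tested on simulated data. The simulation drew normal errors from the same SE, independent between the tissues. It therefore checked the calculation only, and could not check the SE or the independence of the tissues. Software was scipy 1.17.1 and pandas 2.3.3 under Python 3.11.15, with numpy 2.4.6, and figures used matplotlib 3.10.9.

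The text names every member, every list gene past 0.05 in either tissue, up to 4 genes per list with the highest mean level, and the 3 genes nearest in pattern to CD74, B2M and TAP1. A few genes that this rule names are not reported here. Other genes are said to be picked after their values were seen. Members and lists were chosen with earlier results of these data known. UniProt entry names were translated only where the gene is certain. The list of class II turnover genes matched no row. Genes at a locus shared with another gene are uncertain, as reads could be split between them.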

Additional observations from a re-analysis of the deposited data

Results flagged for a closer look

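The effect of DMVD on MYL3, a ventricular myosin light chain used here as a heart muscle marker, differed between the tissues by -5.12 on the log2 scale, valve minus ventricle, and passed the test of that difference. None of the 6 antigen presentation genes passed that test, in which the errors of the tissues are taken as independent. MYL3 stood apart from the other cardiomyocyte markers tested in both tissues. Their differences ran from -1.31 ± 1.33 for TNNI3 to -0.04 ± 1.56 for MYBPC3, and none passed.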

How the results depend on the processing

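None of 88 recomputed values of the 6 genes changed direction or its side of an adjusted p of 0.05, over adjustment among genes whose mean reached 1 or 5 FPKM, the Benjamini-Yekutieli adjustment, centring on the median gene, 1 or 0.1 FPKM added, and a correlation of 0.5 between tissues. The lowest adjusted p among them was 0.105, for CD74 in the valve. Much of this stability was fixed in advance and is no support for the values. Changing the adjustment or the correlation leaves the log2 values as they are. The same FPKM added to both groups of a tissue cannot reverse a direction, and those values carry no adjusted p. The Benjamini-Yekutieli adjustment can only raise an adjusted p. The count of 2 pathway genes called in the ventricle became 1 among genes whose mean reached 5 FPKM, because ICOSLG lies under that mean. The Benjamini-Yekutieli adjustment ended 10 other calls, those of Q30429_CANFA, S100A9 and EMCN in the valve, of VWF, ROBO4, POSTN, MMP8 and ALAS2 in the ventricle, and of C1QB in both. Centring ended that of S100A9. With a correlation of 0.5 between the tissues' errors the unadjusted p of 4 of the 6 tissue differences fell under 0.05 (CD74 0.0186, DLA-DRA 0.0155, TAP1 0.0216 and CIITA 0.0246 by the normal test), and the tissue difference passed after adjustment for CD274 (-2.55, 0.0136) and the neutrophil marker S100A8 (-3.03, 0.0379). No paired analysis was possible because the tables hold 1 value per group. For the same reason leaving out each replicate, edgeR, DESeq2 and limma were not run. Depth per library is unknown, so what it limits cannot be given.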
